A study of Mus musculus with 6 samples.

Results

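The genes described are listed for the granule and secreted antimicrobial proteins of Paneth cells (PCs), alpha-defensins left out, with limits on some given below. They were chosen by name and matched by Ensembl identifier: Lyz1 and Lyz2 (lysozymes), Ang4 (an angiogenin ribonuclease), Itln1 (a lectin), Mptx1 and Mptx2 (mucosal pentraxins), Mmp7 (the protease matrilysin), and Pla2g2f and Pla2g2a (secreted phospholipases A2). All 9 were found among the 55414 genes of the count table, and all 9 were among the 13026 genes that passed the filter on low counts and were tested. The control group was 3 C57BL/6J mice with a knockout of Ifnar1 that were injected with PBS, and the TNF group was 3 C57BL/6J mice with the same knockout that were injected with TNF. In both groups PCs were sorted from the small intestine 15 h later, and each mouse gave 1 library of total RNA. Ifnar1 encodes one chain of the receptor for type I interferons, so every library, controls included, came from an animal labelled as lacking it. The labels give neither age nor sex, and no library used here came from a mouse with an intact receptor.

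PCs sit at the base of the small intestinal crypts and store large granules that are released into the crypt lumen. Lysozyme cuts bacterial peptidoglycan, phospholipase A2 attacks bacterial membrane lipids, angiogenin 4 is a microbicidal ribonuclease, and intelectin binds glycans of microbial surfaces. Matrilysin activates the alpha-defensins by removing their propeptide. Tumour necrosis factor (TNF) is an inflammatory cytokine with receptors on many cell types, the intestinal epithelium included.

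Total counts were between 12747484 and 17039511 per library. TNF replicate 1 stood apart from the other TNF libraries. On the first principal component, which held 48.9% of the variance, it lay at -39.3 beside the PBS libraries (-35.8 to -28.7), while TNF replicates 2 and 3 lay at 63.0 and 73.1. It stayed in the group its label gives, and results that rest on it are also given with that library left out. Those fits keep only TNF replicates 2 and 3, the TNF libraries that lay apart from PBS, so their calls describe these libraries only. Ifnar1 itself had 61 to 159 counts in each of the 6 libraries, which checks nothing about the knockout without a library of another genotype. CPM stands here for counts per 1000000 counts, after scaling between libraries. The 7 markers listed for PCs summed to 337477 to 400792 CPM in the PBS libraries and 256182 to 578373 CPM in the TNF libraries, with none at 0. Lyz1, Ang4 and Mmp7 are among these markers, so the sum is no separate measure of PC content beside the granule genes. These samples were pools of sorted cells, in which fewer cells of a type and less RNA per cell cannot be told apart.

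The lysozyme and pentraxin genes come in pairs whose sequences bear on how their counts can be read. The coding sequences of Lyz1 and Lyz2, each 447 bases with the stop codon, were 95.1% identical, with 22 differing positions. The stretch of 150 coding bases with the fewest differences, coding bases 276 to 425, is shown for both copies, with the differing bases in capitals. It runs over exons 2 to 4 on the minus strand, within chr10:117124510-117126959 for Lyz1 and chr10:117114048-117116571 for Lyz2 (GRCm39, introns left out of the sequence).
Lyz1: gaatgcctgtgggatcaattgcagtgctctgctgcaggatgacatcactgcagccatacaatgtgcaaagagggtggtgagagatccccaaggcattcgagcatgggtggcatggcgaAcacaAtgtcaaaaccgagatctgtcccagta
Lyz2: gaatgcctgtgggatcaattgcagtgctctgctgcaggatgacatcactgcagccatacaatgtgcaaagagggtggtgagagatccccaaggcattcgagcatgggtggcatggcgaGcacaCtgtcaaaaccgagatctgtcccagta
Only 2 positions of the 150 told the copies apart in this stretch. The coding sequences of Mptx1 and Mptx2, each 660 bases, were 92.0% identical, with 53 differing positions. Their first 150 coding bases, over exons 1 and 2, held 1 difference, again in capitals. They lie within chr1:174158139-174159845 on the plus strand for Mptx1 and chr1:173102538-173105289 on the minus strand for Mptx2.
Mptx1: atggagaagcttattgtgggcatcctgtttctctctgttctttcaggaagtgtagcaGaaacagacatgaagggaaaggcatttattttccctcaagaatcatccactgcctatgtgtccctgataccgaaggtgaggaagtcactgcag
Mptx2: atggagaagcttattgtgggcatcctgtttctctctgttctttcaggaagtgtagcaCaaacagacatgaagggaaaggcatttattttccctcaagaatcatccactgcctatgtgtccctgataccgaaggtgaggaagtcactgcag
Reads as short as 50 bases could therefore not always be assigned to 1 copy. Of the 50-base words of the Lyz1 transcript 17.3% also occurred in other genes, and of the Mptx2 transcript 18.0%. At 100 bases the shares were 2.05% and 3.31%, and at 150 bases both were 0. How the authors' counting treated reads that match both copies is not given in the sources used here, so the low counts of Lyz2 and Mptx1 are uncertain. The phospholipase pair was far less alike, with 69.5% identity over 426 aligned coding bases and no shared word of 50 bases.

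Per length of transcript, the 9 genes spanned more than 4 orders of magnitude. In PBS the mean level in CPM per kilobase, with SD and n = 3, fell in the order Lyz1 (135331 ± 14827), Itln1 (34253 ± 13370), Mptx2 (24446 ± 2204), Ang4 (21732 ± 2596), Mmp7 (5755 ± 635), Pla2g2a (477 ± 128), Pla2g2f (110 ± 26.6), Mptx1 (24.7 ± 6.31) and Lyz2 (5.80 ± 0.518). The ranges over the PBS libraries overlapped between Itln1 and Mptx2 and between Mptx2 and Ang4, whereas the other neighbours had separate ranges. Within single PBS libraries Itln1 was 0.905 to 2.04 times as high as Mptx2, so these neighbours had no fixed order. Mptx2 was above Ang4 in each PBS library, at no more than 1.17 times its level. In TNF the means over all 3 libraries had the same order, which rested on TNF replicate 1. With that library left out, Ang4 (14194 CPM per kilobase) and Mmp7 (9913) lay above Mptx2 (9675), which went from the third place to the fifth, and the order of the other genes stayed. Mptx2 was 1.26 times as high as Ang4 in TNF replicate 1, and 0.504 and 0.776 times as high in TNF replicates 2 and 3. The order in PBS did not change when the lengths of all annotated exons were used in place of 1 transcript. Ang4 then had the greatest loss, from 21732 to 8798 CPM per kilobase.

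**Figure D1:**
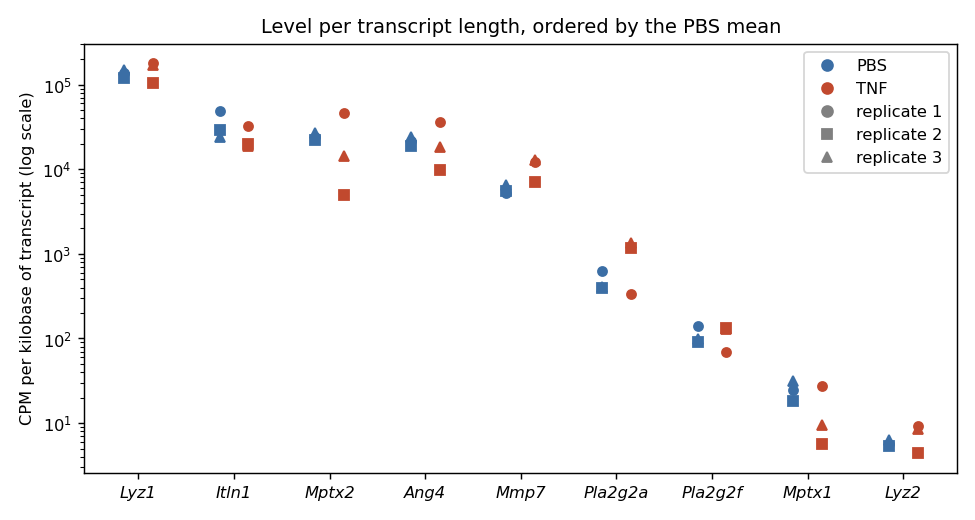
Level of each granule gene in CPM per kilobase of transcript (log scale) in the 3 PBS and 3 TNF libraries, ordered by the PBS mean, with 1 point per library. Lyz1 lies at 105716 or more in all libraries and Lyz2 at 9.22 or less, and the TNF points of Mptx2 spread from 4987 to 45907.

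Within the lysozyme and pentraxin pairs 1 copy held nearly all of the level. Per kilobase, Lyz1 was 23316 times as high as Lyz2 in PBS and 20631 times in TNF. Mptx2 was 989 times as high as Mptx1 in PBS and 1534 times in TNF, and Pla2g2a was 4.33 and 8.57 times as high as Pla2g2f. Lyz2 took 0.00977% to 0.0122% of the counts of the lysozyme pair in every library. The highest share, in TNF replicate 1, had a 95% Wilson interval of 0.0110% to 0.0136%, and such intervals cover counting error only. Mptx1 took 0.0829% to 0.117% of the pentraxin pair in PBS and 0.0601% to 0.114% in TNF, so the groups overlapped.

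The 9 genes together took a large part of the counts, which overlapped between the groups. They held 26.3% ± 1.72 (SD, n = 3) of all counts in PBS and 24.6% ± 3.03 in TNF. The lowest library was TNF replicate 2 at 21.2% and the highest PBS replicate 3 at 28.1%, and the groups overlapped. The 95% Wilson interval of these shares was at most 0.0493 percentage points wide, far less than the spread between mice. The alpha-defensin genes took 28.8% ± 2.31 in PBS and 27.5% ± 8.58 in TNF. Of the counts outside the alpha-defensins, the granule genes held 36.9% ± 2.13 and 34.5% ± 8.17.

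The comparison of TNF with PBS asked how these genes differ 15 h after TNF. Over all 6 libraries, 0 of the 9 genes passed an adjusted p of 0.05 (edgeR quasi-likelihood test, Benjamini-Hochberg over all genes tested), against 0% of all genes. At an unadjusted p under 0.05 the counts were 0 of the 9 and 1596 of all genes (12.3%). DESeq2 called 1.75% of the genes with an adjusted p higher in TNF and none of the 9. At an unadjusted p under 0.05 it gave 2 of the 9, Mmp7 and Pla2g2a, and limma-voom gave 2, Mmp7 and Mptx1, against 12.9% and 12.8% of all genes tested. The median log2 fold change of the 9 genes was -0.00, as for all genes tested, with 4 higher and 5 lower. With TNF replicate 1 left out, edgeR called 9.10% of all genes higher and 5.40% lower, and of the 9 genes it called 1 higher (Pla2g2a) and 1 lower (Mptx1). The TNF libraries all lay above the PBS libraries for 1 of the 9 genes (Mmp7), against 9.07% of all genes tested, and all below for none of the 9, against 7.82%. At 1 of 9 genes, each of these shares is near its background.

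**Figure D2:**
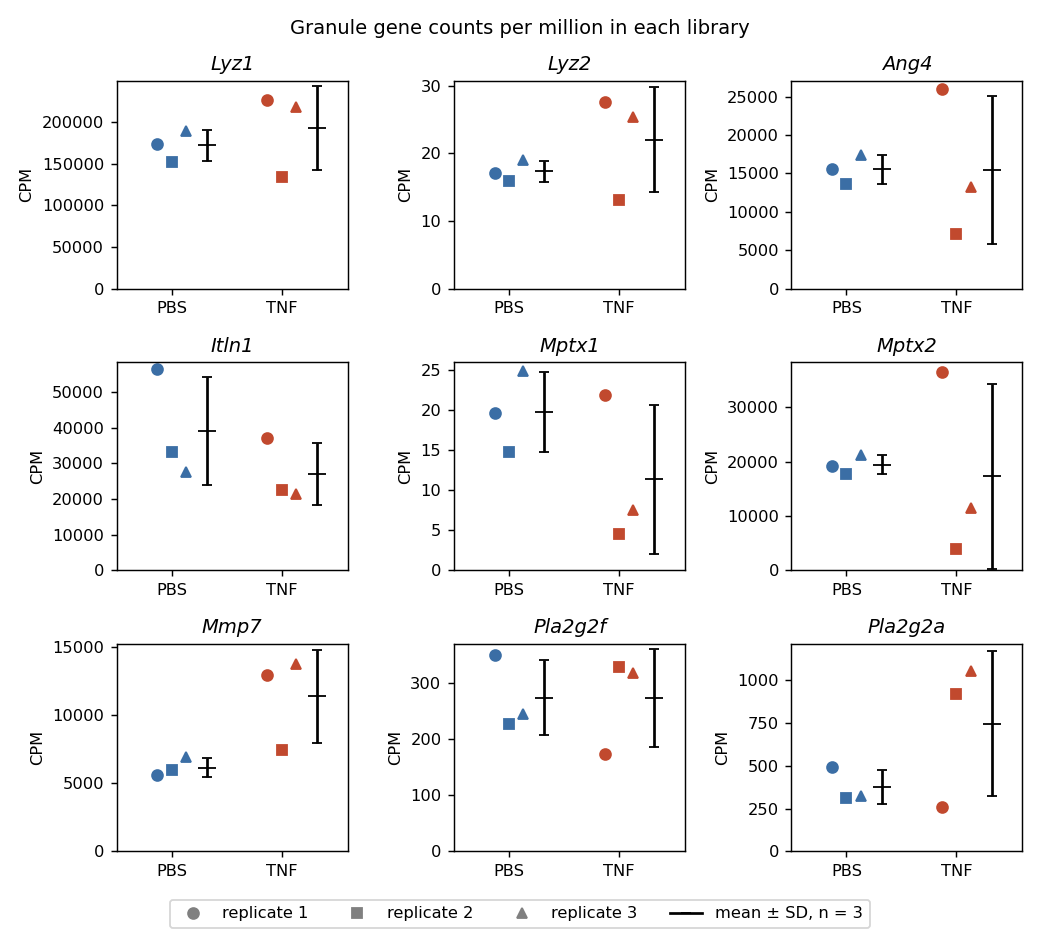
CPM of each granule gene in the 3 PBS (blue) and 3 TNF (red) libraries, with symbols for the replicate number and black bars for the mean ± SD (n = 3). The groups are separate for Mmp7, and TNF replicate 1 lies far from the other TNF libraries for Mptx1, Mptx2, Ang4 and Pla2g2a.

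The lysozymes did not differ beyond the replicate spread. Lyz1 (ENSMUSG00000069515, chromosome 10, 117123698 to 117128775, minus strand, 4 exons) is the lysozyme of PC granules. Its level was 173835, 151958 and 189412 CPM in the PBS libraries, listed here and below as replicates 1, 2 and 3, and 226165, 134153 and 217466 CPM in the TNF libraries. The highest and the lowest library were both TNF libraries. TNF against PBS gave a log2 fold change of 0.17 (SE 0.67, 95% interval -1.34 to 1.67, adjusted p 0.938 by edgeR). Lyz2 (ENSMUSG00000069516, chromosome 10, 117111557 to 117118346, minus strand, 4 exons) is the lysozyme of macrophages and other myeloid cells. It had 17.2, 16.0 and 19.0 CPM in the PBS libraries and 27.6, 13.1 and 25.4 CPM in the TNF libraries, again with the highest and the lowest library in TNF, at a log2 fold change of 0.34 (SE 0.29, adjusted p 0.671 by edgeR). The 11 myeloid markers summed to 9.16 to 41.5 CPM in the PBS libraries and 21.7 to 35.5 CPM in the TNF libraries, with the neutrophil enzyme gene Mpo at 0 in every library. Ptprc and Cd14 together made up most of each sum, while Csf1r, Adgre1, Itgam, Tyrobp and Fcer1g had at most 0.685 CPM in any library. The part of myeloid cells in the level of Lyz2 was not tested. Lyz2 is further uncertain because 8.29% of its 150-base words also occurred in Gm67237, a long noncoding RNA gene annotated over it on the other strand. Of 7 further genes of the lysozyme families none was tested, and the highest value of any was 0.510 CPM.

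Lyz2 followed Lyz1 from library to library at its far lower level. Per 1000 Lyz1 counts there were 0.0988, 0.105 and 0.100 counts of Lyz2 in PBS and 0.122, 0.0977 and 0.117 in TNF. The part of reads shared between the copies in this ratio was not tested. The upstream regions of the pair are shown because the levels differed so much between copies. They are the 250 bases before each transcription start in RefSeq (GRCm38.p6, minus strand), at chr10:117292869-117293118 for Lyz1 and chr10:117282273-117282522 for Lyz2, with bases not matched between the copies in capitals.
Lyz1: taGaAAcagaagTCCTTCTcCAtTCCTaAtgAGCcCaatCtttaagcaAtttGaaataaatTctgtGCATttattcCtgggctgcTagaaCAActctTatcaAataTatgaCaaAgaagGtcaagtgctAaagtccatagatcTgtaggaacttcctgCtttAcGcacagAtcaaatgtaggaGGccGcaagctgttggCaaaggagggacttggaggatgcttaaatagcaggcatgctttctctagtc
Lyz2: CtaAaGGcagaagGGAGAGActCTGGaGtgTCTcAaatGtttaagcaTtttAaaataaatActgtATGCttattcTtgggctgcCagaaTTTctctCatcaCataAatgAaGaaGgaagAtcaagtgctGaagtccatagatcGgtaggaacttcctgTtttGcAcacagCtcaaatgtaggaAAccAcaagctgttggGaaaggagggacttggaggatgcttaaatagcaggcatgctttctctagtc
Of 248 aligned positions, 200 (80.6%) were identical, and the last 50 bases before the start held none in capitals. The corresponding regions of Mptx1 and Mptx2 had 198 identical of 228 aligned positions (86.8%). The letters TATAAA, the core of the TATA box, were searched on both strands from 250 bases before to 50 bases after the start, in 8 of the 9 genes, as Pla2g2a had no entry. They occurred 2 times for Mptx1, each on the strand opposite to the gene, and 2 times in 1 of the 2 windows of Mmp7. No window of the other genes held them, while 13.6% of 32851 mouse promoters did. The search does not show whether a hit works as a TATA box.

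Ang4 (ENSMUSG00000060615, chromosome 14, 51990721 to 52011053, minus strand, 2 exons in its main transcript) had nearly the same mean in both groups with very different spreads. It had 15608, 13648 and 17358 CPM in the PBS libraries and 26004, 7071 and 13227 CPM in the TNF libraries. TNF replicate 1 lay above every PBS library and the other TNF libraries lay below every PBS library. Its log2 fold change was -0.01 (SE 0.54, adjusted p 0.995 by edgeR), and without TNF replicate 1 it was -0.60 (adjusted p 0.313, range over all alternatives 0.313 to 0.999). Among its relatives, Ang, Rnase1 and Rnase4 were tested and none passed. Rnase1, a pancreatic-type ribonuclease, had 285, 145 and 240 CPM in the PBS libraries and 401, 347 and 366 CPM in the TNF libraries, without overlap (log2 fold change 0.73, SE 0.29, adjusted p 0.360 by edgeR). The near relatives Ang2, Ang5 and Ang6 had at most 0.322 CPM in any library.

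The intelectin and the pentraxins had lower values in TNF replicates 2 and 3 than in any PBS library. Itln1 (ENSMUSG00000038209, chromosome 1, 171345690 to 171368943, minus strand, 8 exons) had 56451, 33233 and 27666 CPM in the PBS libraries and 37113, 22508 and 21466 CPM in the TNF libraries. TNF replicates 2 and 3 lay below all PBS libraries and TNF replicate 1 among them. The fitted log2 fold change was -0.53 (SE 0.54, adjusted p 0.730 by edgeR), and -0.81 without TNF replicate 1 (adjusted p 0.208, range over all alternatives 0.208 to 0.978).

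Mptx2 (ENSMUSG00000079180, chromosome 1, 173101949 to 173105344, minus strand, 2 exons) is the pentraxin of small intestinal PCs. It had 19206, 17771 and 21253 CPM in the PBS libraries, and 36450, 3960 and 11404 CPM in the TNF libraries. TNF replicate 1 was the highest of the 6 libraries and TNF replicates 2 and 3 the lowest, so the group mean hid opposite deviations. Over all 6 libraries the log2 fold change was -0.17 (SE 0.72, adjusted p 0.941 by edgeR), and -1.32 without TNF replicate 1 (SE 0.44, adjusted p 0.0702, range over all alternatives 0.0702 to 0.996).

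Mptx1 (ENSMUSG00000026531, chromosome 1, 174158084 to 174160439, plus strand, 2 exons), the copy known from the large intestine, was, like Mptx2, lowest in TNF replicates 2 and 3, at a far lower level. It had 19.7, 14.8 and 24.8 CPM in the PBS libraries, from 273, 221 and 338 counts, and 21.9, 4.50 and 7.57 CPM in the TNF libraries, from 258, 92 and 94 counts. TNF replicate 1 lay among the PBS libraries and the others below them. The log2 fold change was -0.81 (SE 0.51, adjusted p 0.544 by edgeR). Without TNF replicate 1 Mptx1 passed the test, at 3.26-fold lower (log2 fold change -1.71, SE 0.32, adjusted p 0.00511, range over all alternatives 0.00511 to 0.936). Of the relatives, Nptx1, a neuronal pentraxin, was tested with all 6 libraries and did not pass (log2 fold change -1.77, SE 1.21, adjusted p 0.579 by edgeR). Without TNF replicate 1, Nptx1 had 6.28, 4.74 and 2.13 CPM in the PBS libraries and 0 and 0.242 CPM in the TNF libraries. Nptx2 had 0 to 0.400 CPM in the PBS libraries and 3.47 and 3.95 CPM in those TNF libraries. In that fit each met the low-count filter only in the group where it was high, so neither call is counted as a result. Crp, Apcs and Ptx3 had at most 0.255 CPM in any library.

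Mmp7 (ENSMUSG00000018623, chromosome 9, 7692091 to 7699587, plus strand, 6 exons) was higher in every TNF library than in any PBS library. It had 5576, 5967 and 6895 CPM in the PBS libraries and 12884, 7463 and 13712 CPM in the TNF libraries. It was high in TNF replicate 1 as well as in TNF replicate 3, and TNF replicate 2 lay closest to the PBS libraries. TNF against PBS gave a log2 fold change of 0.89 (SE 0.42, 95% interval -0.05 to 1.82), a 1.85-fold higher level that did not pass (adjusted p 0.429 by edgeR). DESeq2 gave an adjusted p of 0.0662 and edgeR without TNF replicate 1 gave 0.141 at a log2 fold change of 0.80, in a range of 0.0662 to 0.920 over all alternatives. At 50 bases 7.36% of the words of Mmp7 also occurred in AV064505, a long noncoding RNA gene on the other strand, and use of strand in counting is not given in the sources used here. Of the other metalloproteases and their inhibitors, 4 of 15 were tested (Mmp14, Mmp15, Mmp28 and Timp2) and none passed with edgeR. Mmp15, a membrane-type protease, had 44.4, 34.1 and 36.8 CPM in the PBS libraries and 37.0, 224 and 131 CPM in the TNF libraries. It passed without TNF replicate 1 (log2 fold change 2.23, adjusted p 2.53e-04 by edgeR) and with DESeq2 on all libraries (adjusted p 0.0209). Mmp7, the granule protease, was the only one of these above 1000 CPM.

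Both phospholipase genes were lowest in TNF replicate 1. Pla2g2a (ENSMUSG00000058908, chromosome 4, 138559171 to 138562497, plus strand, 5 exons) had 492, 312 and 323 CPM in the PBS libraries and 261, 918 and 1052 CPM in the TNF libraries. TNF replicate 1 was the lowest of all 6 libraries and TNF replicates 2 and 3 were the highest. Its log2 fold change was 0.98 (SE 0.47, adjusted p 0.436 by edgeR). Without TNF replicate 1 it passed the test at 2.66-fold higher (log2 fold change 1.41, SE 0.27, adjusted p 0.00551, range over all alternatives 0.00551 to 0.922). C57BL/6 mice carry a frameshift in this gene and lack the active enzyme, and its main transcript is annotated as a loss-of-function form with 442 coding bases, so these values are of RNA from a disrupted gene.

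Pla2g2f (ENSMUSG00000028749, chromosome 4, 138477843 to 138484957, minus strand, 5 exons), a secreted phospholipase without this defect, had 349, 227 and 246 CPM in the PBS libraries and 173, 329 and 319 CPM in the TNF libraries. TNF replicate 1 was the lowest library here too, and TNF replicates 2 and 3 fell within the PBS range. The fitted log2 fold change was -0.00 (SE 0.31, 95% interval -0.70 to 0.70, adjusted p 0.998 by edgeR). Of the other secreted phospholipases A2, 5 of 9 were tested with all libraries and none passed with edgeR. Pla2g12b, a relative linked to lipid transport, had 4.04, 2.94 and 3.67 CPM in the PBS libraries and 3.91, 13.7 and 18.1 CPM in the TNF libraries, and passed without TNF replicate 1 (log2 fold change 2.18, adjusted p 7.43e-04 by edgeR) and with DESeq2 on all libraries (adjusted p 0.0482). Pla2g2d, tested only without TNF replicate 1, had 0.514 to 0.721 CPM in the PBS libraries. TNF replicates 2 and 3 had 5.04 and 5.48 CPM. Pla2g2d met the low-count filter only through those TNF libraries, where it was high, so its call is not counted as a result. Pla2g5 lay higher in every TNF library, at 11.1 to 20.4 CPM against 6.91 to 10.5 CPM (log2 fold change 0.69, SE 0.30, adjusted p 0.402 by edgeR).

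**Figure D3:**
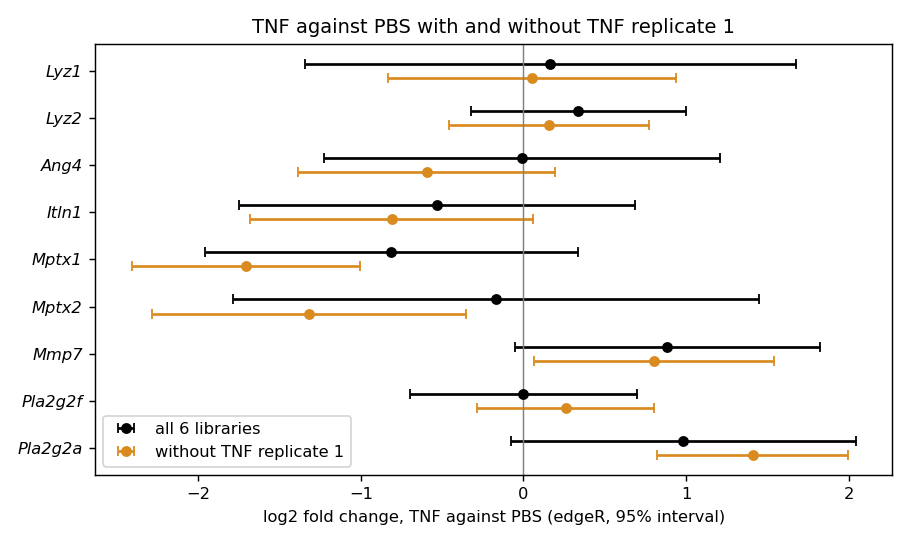
log2 fold change of TNF against PBS with its 95% interval (edgeR) for the 9 granule genes, from all 6 libraries (black) and without TNF replicate 1 (orange). With all libraries every interval includes 0, and without TNF replicate 1 those of Mptx1, Mptx2, Mmp7 and Pla2g2a do not.

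Set against the main granule product instead of the whole library, the genes kept their directions. Lyz1 counts were used as the scale because Lyz1 was the highest of these genes, a choice made after seeing the data. Mmp7 had 32.1, 39.3 and 36.4 counts per 1000 Lyz1 counts in PBS and 57.0, 55.6 and 63.1 in TNF. All TNF libraries lay above the PBS libraries, with TNF replicate 1 between the other TNF libraries, and the mean was 1.63 times as high. On this scale the TNF libraries lay wholly above PBS for 2.93% of the genes tested and wholly below for 8.13%. Mptx1 was below, at 0.0969, 0.0335 and 0.0348 in TNF against 0.113, 0.0971 and 0.131 in PBS, although TNF replicate 1 and PBS replicate 2 were apart by less than counting error. With Lyz1 counts as library sizes, the log2 fold change of Mmp7 was 0.71 (adjusted p 0.564 by edgeR) and that of Mptx1 -1.05 (adjusted p 0.589). None of the granule genes passed, while 16 of the 13026 genes did. Ang4 per 1000 Lyz1 counts was nearly constant in PBS (89.8, 89.8 and 91.6) and ranged from 52.7 to 115 in TNF.

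**Figure D4:**
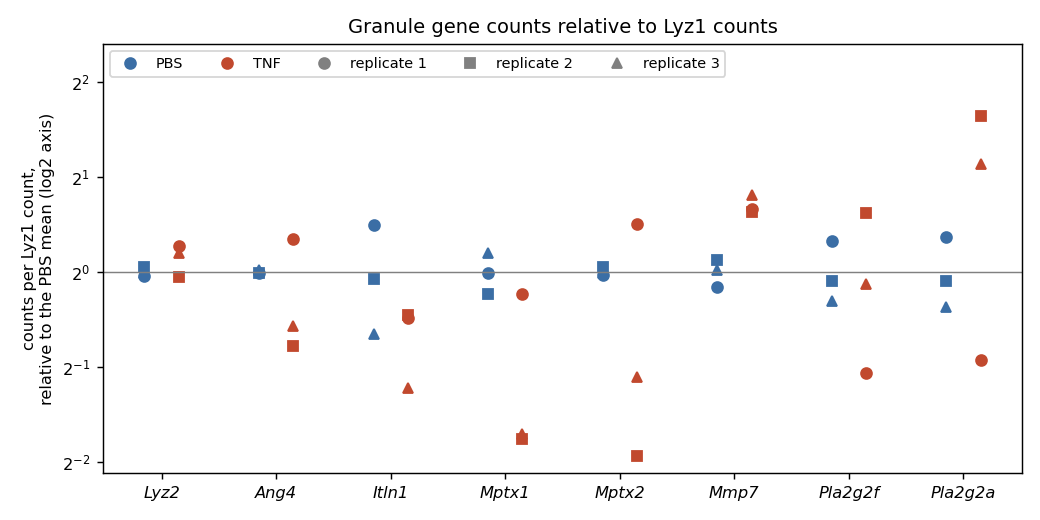
Counts of each gene per Lyz1 count in the 6 libraries, divided by the PBS mean (log2 axis), with colours for the group and symbols for the replicate number. For Mmp7 the 3 TNF libraries lie together above the 3 PBS libraries, and for Ang4 and Mptx2 the PBS libraries lie close together while TNF spreads to both sides.

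Other secreted PC products, the release machinery and PC identity genes were counted from lists. Of 14 tested genes of other secreted products, 3 were higher and 11 lower in TNF, none passed, and the median log2 fold change was -0.62 against -0.00 for all genes. With TNF replicate 1 left out, 2 of them passed as higher and 9 as lower, against 9.10% and 5.40% of all genes, with a median of -1.18 against -0.01. The 2 higher genes were Nupr1 (log2 fold change 2.11, adjusted p 4.11e-04 by edgeR) and Ccl9 (1.19, adjusted p 0.0221 by edgeR). Nupr1 stands in this list although it encodes a nuclear protein and not a secreted product. Spink4, a protease inhibitor, had 7531 to 8697 CPM in the PBS libraries and 3934 to 10921 CPM in the TNF libraries. Ccl6, a chemokine, had 2816, 2264 and 3154 CPM in the PBS libraries and 3904, 463 and 880 CPM in the TNF libraries, and was lower without TNF replicate 1 (log2 fold change -2.01, adjusted p 0.00325 by edgeR). Its order of libraries was that of Mptx2, with TNF replicate 1 highest and TNF replicates 2 and 3 lowest.

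The genes of granule release were more evenly split. Of 18 tested, 9 were higher and 9 lower with a median of -0.05, and none passed. Without TNF replicate 1, 4 of 20 passed as higher, against 9.10% of all genes, and 1 as lower, near the background of 5.40%. Stx11 and Rab26 were tested only there. Stx11, among the 4, had 0 counts in every PBS library and 65 and 39 in TNF replicates 2 and 3. It met the low-count filter only where it was high, so the 4 calls are not read as an excess. Sytl2, a granule docking protein, had 218 to 303 CPM in the PBS libraries and 299 to 419 CPM in the TNF libraries, and the granule GTPase gene Rab3d had 187 to 339 CPM and 190 to 250 CPM. Of 12 tested PC identity genes, 4 were higher and 8 lower, with a median of -0.22, and none passed. With TNF replicate 1 left out, 1 passed as higher and 1 as lower, near the same backgrounds. Xbp1, a factor of secretory cells, had 309, 193 and 211 CPM in the PBS libraries and 165, 131 and 162 CPM in the TNF libraries, without overlap (log2 fold change -0.64, SE 0.26, adjusted p 0.368 by edgeR). Cd24a, a surface marker of PCs, had 2044 to 2731 CPM in the PBS libraries and 1984 to 2672 CPM in the TNF libraries.

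The summed markers of stem cells, enterocytes and goblet cells were lowest in TNF replicates 2 and 3. The 5 stem cell markers summed to 2511 to 3071 CPM in the PBS libraries, to 4628 CPM in TNF replicate 1 and to 872 and 763 CPM in TNF replicates 2 and 3. In PBS and in TNF replicate 1 most of this was Olfm4, a stem cell marker, with 1925 to 2374 CPM in the PBS libraries and 3887, 233 and 272 CPM in the TNF libraries. Of the 5 stem cell markers, 3 passed as lower without TNF replicate 1 (Olfm4, Ascl2 and Smoc2), against 5.40% of all genes. Lgr5 (54.0, 68.9 and 76.8 CPM in the PBS libraries, 69.0, 68.3 and 42.2 CPM in the TNF libraries) and Slc12a2 (481, 450 and 388 CPM in the PBS libraries, 533, 510 and 390 CPM in the TNF libraries) did not show this split. The 8 enterocyte markers summed to 216 to 317 CPM in the PBS libraries and to 223, 93.3 and 71.2 CPM in the TNF libraries. Of the 8 enterocyte markers, 5 passed as lower with TNF replicate 1 left out, against 5.40% of all genes. Apoa1 and Apoa4, among the 5, met the low-count filter only through the PBS libraries, where they were high. The 7 goblet cell markers summed to 10887 to 11831 CPM in the PBS libraries and to 14029, 6933 and 10156 CPM in the TNF libraries. Of these markers, 4 passed as lower without TNF replicate 1, against 5.40% of all genes. Most of each sum was Spink4. Muc2, a goblet cell mucin, had 1481, 1860 and 1110 CPM in the PBS libraries. Its values in the TNF libraries were 888, 2580 and 1440 CPM, so it was not lowest in TNF replicates 2 and 3. TNF replicates 2 and 3 were also the lowest libraries for Itln1, Mptx1, Mptx2, Ang4 and Ccl6, and the part of stem cells, enterocytes and goblet cells in those genes was not tested. The 6 tuft cell markers summed to 400 to 1401 CPM in PBS and 478 to 928 CPM in TNF, and the 8 enteroendocrine markers to 52.5 to 178 and 46.9 to 139 CPM. No marker of these 5 lists was at 0 in all libraries. Spink4 and Tff3 stand both among the goblet cell markers and among the other secreted products, so the counts of these lists are not separate.

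The genes whose pattern over the 6 libraries was most like that of each granule gene were named by the Pearson correlation of log2 CPM among 9435 genes. Since the libraries fall into sets and share their scaling, these values describe these libraries and no more. For Mptx2 they were H2az2 (0.998) and Tceal9 (0.996), for Mptx1 Coq9 (0.998) and Gtpbp8 (0.996), and for Ang4 Ilf2 (0.990) and Calm2 (0.989). For Mmp7 they were Emc8 (0.994) and Echs1 (0.992), for Itln1 Lars1 and Cybrd1 (both 0.994), and for Lyz1 Snu13 (0.983) and Nudt14 (0.982). For Lyz2 they were Selenof (0.997) and Nudt14 (0.995), for Pla2g2a Psmc1 (0.998) and Lpin1 (0.997), and for Pla2g2f Marchf8 (0.993) and Rnf44 (0.991). Nudt14 was named for both lysozymes. None of the 18 places went to another granule gene.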

How the data were processed

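PCs had been sorted from 6 mice, 3 per group, and the deposited file was 1 table of raw counts per Ensembl gene made by the authors, with 0 columns left without a sample. Per the submitters' processing notes the tools were FastQC, Trimmomatic 0.39, STAR 2.7.10a and DESeq2, and the build was mm39. For the counting tool, annotation release, use of strand and treatment of shared reads, nothing is given in the sources used here. Per the labels, sequencing was single-end on the AVITI platform of Element.

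Counts were tested in R 4.3.3 with edgeR 4.0.16 (filterByExpr with a minimum count of 10 and a minimum total of 15, TMM factors, quasi-likelihood test, two-sided, group as the only term). P-values were adjusted by Benjamini-Hochberg over the 13026 genes kept, which held 99.8% of the counts, and a gene passed under 0.05. SEs were derived from the log2 fold change and the root of its F statistic. CPM used TMM-scaled library sizes. A library without a count of a gene could still hold it at 0.176 to 0.235 CPM, with 3 counts as the limit. The script was tested on simulated data. Names, lengths and GRCm39 positions came from GENCODE vM39, which matched 54749 of 55414 identifiers, and upstream sequences from RefSeq (GRCm38.p6). Shared words were searched on both strands of all other genes' transcripts, and pairs were aligned with Biopython 1.88.

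The 9 genes and the lists were chosen with earlier results of these data known. The genes named were the 9, their tested relatives, the 2 highest genes of each list, and the 2 closest in pattern among named protein-coding genes whose average log2 CPM was 2 or more (prior count 2). Untested relatives, single markers beyond this rule, the Lyz1 scale, the TATAAA search and the sequence stretches were added after values were seen. Alternatives were RLE, upper-quartile and library-size scaling, scaling without genes over 1% of counts or without the granule and alpha-defensin genes, no filter on low counts, a filter at a mean CPM of 5, DESeq2 1.42.0, limma-voom (limma 3.58.1), an adjusted p under 0.01, the replicate number as a block, Lyz1 counts as the scale, and each library left out in turn.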

Additional observations from a re-analysis of the deposited data

How the results depend on the processing

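Of the 9 granule genes, none passed an adjusted p of 0.05 under any scaling, filter or tool run, and the count rose to 2 only without TNF replicate 1 (0 to 2 when each library was left out). Of all genes, 0 passed in the main comparison, 690 without the low-count filter, 242 with DESeq2 (of 11741 with an adjusted p), 16 with Lyz1 counts as the scale, and 0 to 1980 when each library was left out, with 1980 without TNF replicate 1. The cause of these moves was not tested. The direction of genes near 0 depended on single libraries. The log2 fold change of Ang4 ranged from -0.60 to 0.31 when each library was left out (0.04 without PBS replicate 3, 0.31 without TNF replicate 2, 0.09 without TNF replicate 3), that of Mptx2 from -1.32 to 0.27 (0.27 without TNF replicate 2, 0.06 without TNF replicate 3) and that of Pla2g2f from -0.19 to 0.26 (0.21 without PBS replicate 1, 0.26 without TNF replicate 1). Without TNF replicate 1 Mptx1 (-1.71) and Pla2g2a (1.41) moved past the threshold. With library sizes alone the median over all genes was -0.11, and no granule gene changed direction. With the replicate number as a block (replicate block), 0 of the 9 granule genes and 0 of all genes passed. At an unadjusted p under 0.05 there were 1 of the 9 and 1395 of all genes (10.7%). Deviations of same-numbered libraries from their group means were correlated at -0.01, -0.07 and 0.03. With so few libraries, and TNF replicate 1 apart from the other TNF libraries, these values cannot decide whether same-numbered samples were handled together. The share of counts of the 9 genes, TNF minus PBS, was -2.95 to -0.02 percentage points when each library was left out. Depth limited Lyz2 and Mptx1, at 92 to 338 counts per library, and no other granule gene, which all had at least 2040.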
